A study of Sus scrofa with 5 samples.

Results

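Human transcripts were examined in the biopsy taken 24 h after a pig kidney was transplanted into a human recipient. They were read from the human (hg38) count table as the genes with at most 3 counts in the 2 untransplanted control kidney libraries together and 10 or more counts at 24 h. The rule took 667 of 58487 human-table symbols, and these 667 genes are called members here. Of the 38935 symbols with at most 3 control counts, 1.71% reached 10 counts at 24 h, against 2.21% at 12 h and 2.87% at 48 h. The controls (replicates 1 and 2) were kidney collected at 0 h and not transplanted, and the xenograft was sampled by 1 biopsy at each of 12, 24 and 48 h in the second case of the study. All 5 libraries were labelled as pig kidney and made from total RNA depleted of ribosomal RNA. The labels give no strain, genotype or age for the pigs and do not say whether the controls came from separate animals, so p-values measure only the spread between these libraries. The xenograft biopsies came from 1 graft, and no time after transplantation has a replicate.

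A vascularised pig kidney is perfused by the recipient's blood, so a biopsy of it can hold human blood cells in the vessels, human leukocytes that have entered the tissue, and human plasma and platelets. Neutrophils and monocytes are the innate cells known to gather early in injured or rejecting grafts. NK cells bind antibody through the Fc receptor encoded by FCGR3A and kill with granule proteins, and T and B cells carry the antigen receptors. Pig and human genes are similar enough that short reads from the graft can be assigned to human genes, and the control kidneys, which hold no recipient cells, give the level of such assignment.

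The pig table held 56126783 to 71106149 counts per library, against 13384239 to 19732227 for the human table. Human-table totals came to 22.8% and 18.8% of the pig-table totals for the controls, with 31.2%, 29.0% and 33.4% at 12, 24 and 48 h. Most human-table counts therefore also occurred in kidneys without recipient cells, and the members made up 0.355% of the human table at 24 h. The graft was recognisable as kidney by UMOD, a protein of the thick ascending limb, with 363013 pig counts at 24 h, and by LRP2 of the proximal tubule, with 76714. The share of pig counts on mitochondrial genes was 14.5% at 24 h, against 21.9% and 33.4% for control replicates 1 and 2. Levels below are in CPM, the human-table counts of a gene on a counts-per-million scale set by the pig-table total of the same library. They compare 1 gene between libraries and not genes of different length.

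Summed over the members, the controls held 369 and 270 counts and the biopsies 94286, 68040 and 131438 at 12, 24 and 48 h. The summed level was 5.60 and 3.80 CPM for the control libraries and 1028 CPM at 24 h (95% exact Poisson interval 1021 to 1036, counting error only). The 24 h biopsy had the lowest of the 3 xenograft sums, 0.690 times the 12 h level of 1491, and the 48 h level of 2342 was 2.28 times that at 24 h. This order was also seen with the mitochondrial genes left out of the pig-table total (1695, 1202 and 2655 CPM). In bulk tissue fewer human cells and less RNA per cell cannot be told apart. How much blood each biopsy core held was not measured.

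**Figure D1:**
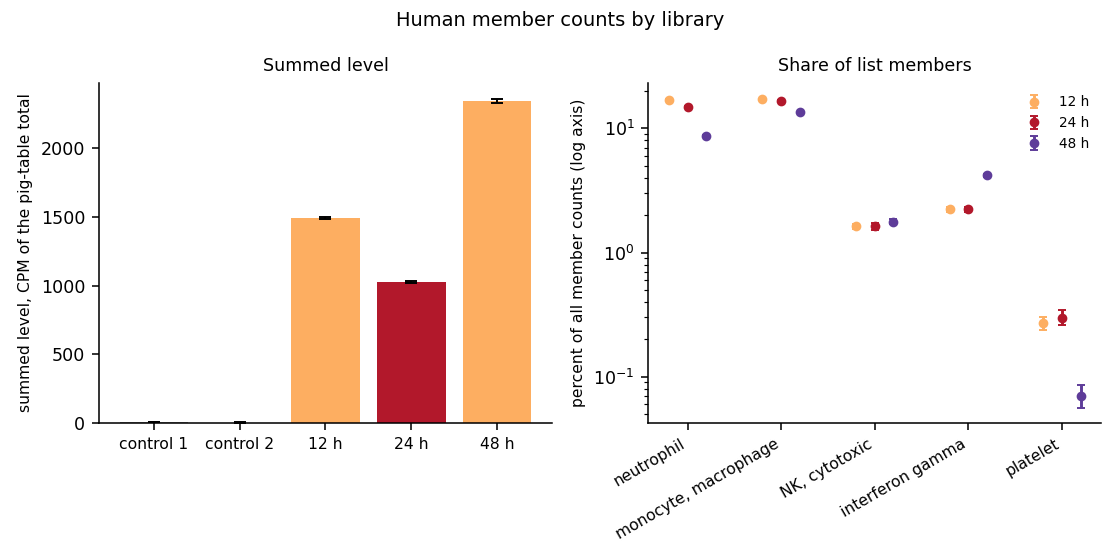
The left panel shows the summed level of the members (CPM) in each library with 95% exact Poisson intervals, and the right panel the percent of all member counts on the members of 5 gene lists at 12, 24 and 48 h with 95% exact binomial intervals (log axis). The 24 h bar (1028) is the lowest of the biopsies, and the neutrophil share goes from 17.0% at 12 h to 14.9% at 24 h and 8.62% at 48 h. S100A9 counts toward both the neutrophil and the monocyte and macrophage shares.

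The markers chosen for human blood leukocytes were present at 24 h. S100A9, which encodes a calcium-binding protein abundant in neutrophils and monocytes, had 1 and 1 counts in the controls and 7389, 4550 and 5107 at 12, 24 and 48 h. Its 24 h level was 68.8 CPM, 4711 times the control level (95% counting interval 1303 to 38914). FCGR3A, a low-affinity receptor for IgG on NK cells and some monocytes, had 2 and 0 control counts and 2961, 2376 and 4339 in the biopsies. LYZ, the lysozyme of granulocytes and monocytes, had 1 and 4 control counts and 10253, 7356 and 12240 in the biopsies. With 5 control counts LYZ lay just outside the rule and is not a member. FCGR3A and FCGR3B are near-identical copies whose reads the counting could divide in either way, and the same holds for HBA1 with HBA2. The LILR receptors are related genes, as are CXCR1 and CXCR2, and how the counting divided their reads was not tested.

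**Figure D2:**
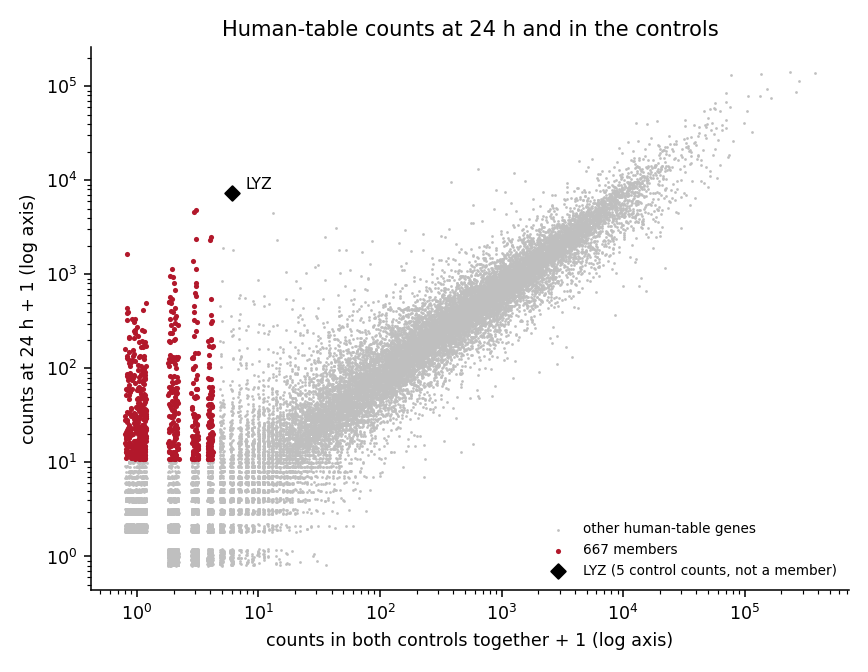
Each point is a human-table gene, with its counts in both controls together on the x axis and its counts at 24 h on the y axis (1 added to both, log axes, small horizontal and vertical shifts to separate points). The 667 members form the columns at 0 to 3 control counts, and LYZ is the black diamond beside them.

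The members differed widely in abundance. The median member had 25 counts at 24 h, 126 members had 100 or more, and 272 had 10 to 19. The 10 members with the most counts held 33.6% of all member counts and the 50 largest held 60.0%. Near the limits of the rule, 128 members had 10 to 12 counts at 24 h while 259 genes outside it had 7 to 9, and 103 members had 3 control counts while 277 genes outside it had 4 to 6 with 10 or more at 24 h. No control count at all was found for 329 members. By symbol, 76 members were non-coding genes, 7 lay on the human mitochondrial genome, and 584 were other genes. An edgeR fit over 19420 human-table genes, which kept 660 of the members, called 655 members higher at 24 h than in the controls, beside 24.1% of all genes tested. That contrast chose the members, so nothing is read from the count. The same fit called 310 genes lower in the whole table, and with TMM factors of that table, 3395 genes were higher and 2374 lower. The median log2 difference was 6.78 over the members and 0.70 over all genes tested.

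Whether a member's counts could have come from the graft was examined through the pig gene of the same symbol. The pig gene's control counts were set to yield at most 3 human-table counts, and this ratio was applied to its pig count at 24 h to give a ceiling for graft reads. Such a ceiling could be given for 281 members. At 24 h, 258 of them exceeded it and 23 did not. The ceiling was under 10 counts for 223 members, which the 10-count minimum of the rule placed above it, so their number is no support for a human origin. Of the 58 members with a ceiling of 10 counts or more, 35 exceeded it. Over the members with a ceiling above 0 the median count was 9.98 times the ceiling, 138 had 10 times or more, and 32 were above by less than 2 times. The count limits of the rule set part of these ratios. For 369 members no pig symbol was found, so their origin has this control only through the low human-table counts in the controls. For 17 the pig gene had no control count, so the controls could not show graft reads from it. Among the 17, pig ARG1 had 164 and pig WNT7A 158 counts at 24 h, beside 46 and 66 human-table counts, while pig FCAR had 0. The members at or below the ceiling had 759 counts in all, against 35574 for those above it.

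A member could fall at or below its ceiling only where its pig gene was much higher at 24 h than in the controls, and the pig gene was called higher for 22 of the 23. LBP, which binds bacterial lipopolysaccharide, had 1 and 0 human-table control counts and 61 at 24 h, 0.284 times its ceiling, and its pig gene went from 31 and 18 to 3508. IL11, encoding a cytokine of the interleukin 6 family, had 22 counts at 24 h, 0.686 times its ceiling. The 23 genes met the rule without counts beyond what the graft could give under the control ratio. Without the 23, the summed level at 24 h was 1017 CPM. A further group, 9 pseudogenes of KRT8 and KRT18, had 11 to 20 counts at 24 h, from 0.997 to 2.64 times the ceiling of their parent genes. The pig gene KRT18, a keratin of simple epithelia, had 663 and 673 counts in the controls and 4914 at 24 h.

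**Figure D3:**
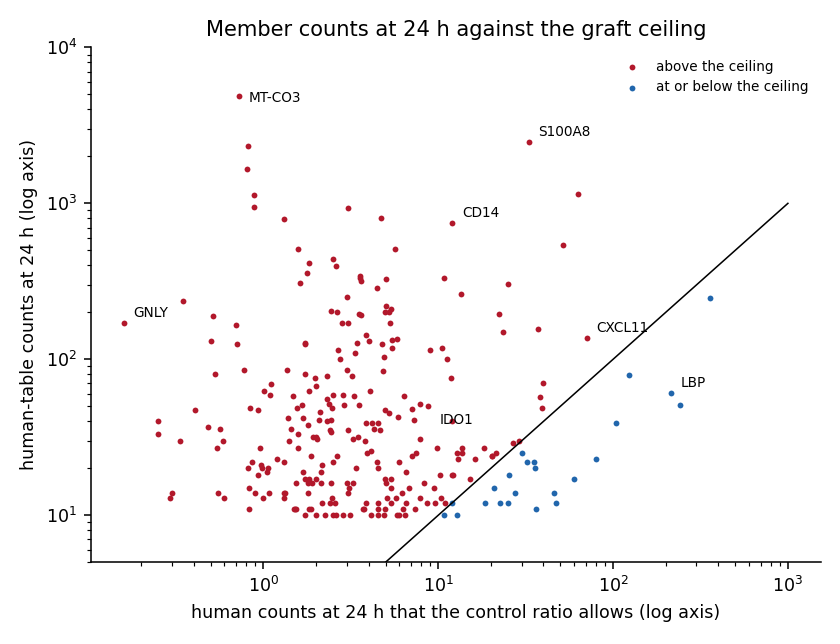
Human-table counts of members at 24 h (y axis) are plotted against the count that the control ratio of the same pig gene allows (x axis), both on log axes, with a line at equality. A member with a ceiling of 0 cannot be drawn on a log axis. Members above the line, such as GNLY, MT-CO3 and CD14, exceed the ceiling, and LBP lies below it.

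The human mitochondrial genome offered a separate view, because its transcripts differ from those of the pig at many positions. Not all of its genes had a low control background, however. The members held 6 of the 13 protein-coding mitochondrial genes and the tRNA gene MT-TW. MT-CO3, a subunit of cytochrome c oxidase, had 2 and 0 counts in the controls and 5517, 4860 and 8803 at 12, 24 and 48 h. Its pig gene had 2324277 and 3767170 counts in the controls, so the ceiling at 24 h was 0.727 counts. MT-ND2, a subunit of respiratory complex I, had 0 and 0 control counts and 1900, 1661 and 3313 in the biopsies. Its 24 h level was 1147 times the floor of 3 counts over both controls. The 7 members made up 13.1%, 16.2% and 15.3% of member counts at 12, 24 and 48 h. The mitochondrial members had their lowest summed level at 24 h, with 196, 167 and 359 CPM. The other protein-coding mitochondrial genes were not members because of control counts. These ran from 2 and 2 for MT-ATP8 and 6 and 6 for MT-CO2 to 6229 and 10691 for MT-CO1. MT-ND1, with 6185 and 9766, was at 84.4 CPM at 24 h, below its control levels of 93.8 and 137 CPM.

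Of 718 genes on 29 lists of cell type and immune genes, 717 were in the human table and 150 were members, while 517 members were on no list. A list gene that is not a member either had more than 3 control counts or fewer than 10 counts at 24 h, and these cases differ in what they show. For the first the control background can hide a human signal, and for the second the human signal was low.

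**Figure D4:**
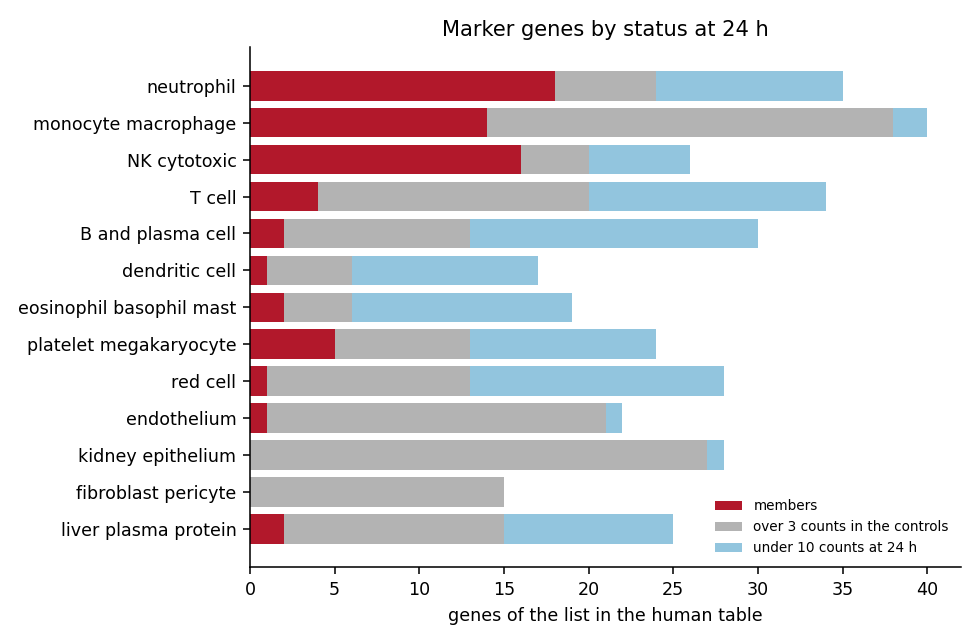
Bars give the number of genes of each cell type list in the human table, divided into members, genes with over 3 control counts, and the remaining genes with under 10 counts at 24 h. Members are most numerous among the neutrophil (18), NK and cytotoxic (16) and monocyte and macrophage (14) genes, and none is a kidney epithelial or fibroblast gene.

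Neutrophil genes were members in 18 of 35 cases. S100A8, the partner of S100A9 in calprotectin, had 2 and 1 control counts and 4287, 2486 and 2586 in the biopsies. MNDA, an interferon-inducible nuclear protein of myeloid cells, had 1 and 1 control counts and 1216, 799 and 1150. FPR1, the receptor for bacterial formyl peptides, had 2 and 0 and then 1021, 627 and 987. All 3 were lowest at 24 h among the biopsies. CSF3R, the receptor for the granulocyte growth factor G-CSF, had 0 and 2 control counts and 325 at 24 h, and the chemokine receptor gene CXCR2 had none in the controls and 195 at 24 h. The genes for the azurophil granule were a contrast. MPO had 6 counts at 24 h, ELANE 1, and AZU1 and PRTN3 0, and the granule and oxidase list had 4 members of 27. These granule genes are transcribed in bone marrow precursors and are known to be low in mature blood neutrophils. Of the 4 members on the granule and oxidase list, OLFM4 and MMP8 were at 1.18 and 1.77 times their ceilings at 24 h. The others, NCF1 and PADI4, were at 20.6 and 4.44 times. CYBB, a subunit of the phagocyte oxidase, had 2937 counts at 24 h but was outside the rule with 87 and 72 in the controls.

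Monocyte and macrophage genes were members in 14 of 40 cases, and 24 others had more than 3 control counts. MS4A6A, a membrane protein of monocytes, had 0 and 2 control counts and 1958, 1376 and 2709 in the biopsies. CD14, the co-receptor for lipopolysaccharide, had 1 and 1 and then 457, 748 and 727, and was 1.56 times higher at 24 h than at 12 h, against the direction of most members. MARCO, a scavenger receptor of macrophages, had 262 counts at 24 h, CD86, a costimulatory ligand, 204, and SIGLEC1, a sialic acid receptor of macrophages, 136. S100A9 is on both the neutrophil and the monocyte list. At 24 h it held 4550 of the 10107 counts of neutrophil members and of the 11205 counts of monocyte and macrophage members. S100A8 held a further 2486 of the first sum and FCGR3A 2376 of the second. The summed level of the monocyte and macrophage members was 255, 169 and 315 CPM at 12, 24 and 48 h, and that of the neutrophil members 254, 153 and 202. As a share of all member counts at 24 h, these were 16.5% and 14.9%. Through S100A9 the 2 shares overlap, so they do not measure separate cell types.

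NK and cytotoxic genes were members in 16 of 26 cases. PRF1, the pore-forming protein perforin, had 1 and 0 control counts and 201, 189 and 449 in the biopsies. GNLY, the lytic protein granulysin, had 0 and 0 and then 179, 172 and 389. At 24 h GNLY was at 119 times the control floor of 3 counts over both controls. NKG7, a protein of cytotoxic granules, had 134 counts at 24 h and KLRD1, the NK receptor subunit CD94, 131, each with none in the controls. All 16 members were lower at 24 h than at 12 h and higher at 48 h than at 24 h. Over all 667 members these numbers were 536 and 583. Together the 16 members reached 24.2, 16.7 and 41.6 CPM.

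T cell genes gave 4 members of 34, and 14 other genes of the list had under 10 counts at 24 h. CD4, a coreceptor of helper T cells that human monocytes also express, had 1 and 0 control counts and 306, 238 and 728 in the biopsies. The other members were CD247, the zeta chain that NK cells also use, with 49 counts at 24 h, CD2 with 22 and TIGIT with 19. The remaining 16 genes had more than 3 control counts, among them CD3E with 4 and 2, so a human signal in these could be hidden. Of the genes with a low background, CD3D had 3, 3 and 8 counts at 12, 24 and 48 h, CD8A had 14, 6 and 16, and TRAC, the constant region of the receptor alpha chain, had 1, 0 and 18. CD28 and CD27 had 0 counts at 24 h, where a floor of 3 counts corresponds to 0.0453 CPM. TRBC2 had 15 counts at 24 h but 6 and 3 in the controls.

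B and plasma cell genes gave 2 members of 30. CR2, complement receptor 2, had 53 counts at 24 h and CD79B, a chain of the B cell receptor, 22. MS4A1, which encodes CD20, and PAX5 had 0 counts at 24 h, and CD79A had 1. Dendritic cell genes gave 1 member of 17, IL3RA, the interleukin 3 receptor chain, with 30 counts. CLEC9A and LILRA4, which mark dendritic cell subsets, had 0 at 24 h. The list for eosinophils, basophils and mast cells gave 2 members of 19. CCR3, the eotaxin receptor, had 12, 16 and 1 counts at 12, 24 and 48 h, and ALOX15, a lipoxygenase, 4, 11 and 3. The 24 h count of ALOX15 was 1.48 times its ceiling, and its pig gene had 33 and 35 control counts and 168 at 24 h.

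Platelet genes gave 5 members of 24. PPBP, a platelet chemokine precursor, had 1 and 0 control counts and 129, 116 and 49 in the biopsies, and PF4, platelet factor 4, had 0 and 0 and then 45, 29 and 9. None of the 5 was higher at 48 h than at 24 h, and their sum was 4.0, 3.08 and 1.64 CPM. HBA2, an alpha globin gene, was the 1 red cell member of 28 list genes, with 102 counts at 24 h. The beta globin gene HBB had 26 and 16 control counts and 4964, 3098 and 2881 in the biopsies and so was not a member.

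Genes of other tissues were nearly absent from the members. None of 28 kidney epithelial genes and none of 15 fibroblast and pericyte genes was a member, and all but 1 of these genes had more than 3 control counts, so a human contribution to them could not be read. ICAM2, an adhesion molecule that endothelium, platelets and leukocytes carry, was the only member of 22 endothelial genes, with 144 counts at 24 h. Plasma protein genes made in liver gave 2 members of 25. SERPINA1, the protease inhibitor alpha-1 antitrypsin that monocytes and neutrophils also transcribe, had 1 and 1 control counts and 1390, 1146 and 2306 in the biopsies. ALB, which encodes albumin, had 0 counts at 24 h.

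Receptors that set the threshold of leukocyte activation were the list with the most members, 25 of 40. They pair inhibitory and activating members that share ligands such as MHC class I and sialic acids. LILRB2, an inhibitory receptor for MHC class I, had 0 and 1 control counts and 810, 434 and 860 in the biopsies. LAIR1, an inhibitory collagen receptor, had none in the controls and 412, 249 and 629, and CD300A had none and then 370, 210 and 481. All 25 were lower at 24 h than at 12 h, and 24 were higher at 48 h than at 24 h, beside 536 and 583 of all 667 members. Fc receptor genes gave 7 members of 14, with 235 counts at 24 h for FCGR2A, an activating IgG receptor.

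Receptors for cytokines gave 13 members of 32. IFNGR1, the ligand-binding chain of the interferon gamma receptor, had 0 and 1 control counts and 1579, 935 and 2042 in the biopsies. IL1R2, a decoy receptor for interleukin 1, had 304 counts at 24 h, and CSF2RB, the shared chain of the GM-CSF receptor, 201. Sensors of microbes and danger gave 12 members of 30, among them TLR8, a sensor of RNA, with 1 and 0 control counts and 330 at 24 h, and CLEC7A, a receptor for beta-glucan, with 220. Of 38 cytokine genes 5 were members. TNF had 47 counts at 24 h, IL1B 29 and IFNG, interferon gamma, 16. IFNG had no control count and 34, 16 and 56 counts at 12, 24 and 48 h.

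Chemokine genes gave 7 members of 33. CXCL11, a ligand of CXCR3 induced by interferon gamma, had 2 and 1 control counts and 152, 137 and 851 in the biopsies. Its count at 24 h was 1.94 times its ceiling, since its pig gene went from 16 and 22 to 896. The related CXCL9 and CXCL10 were outside the rule with 8 and 16 control counts and had 515 and 1048 at 24 h. CCL5, which attracts T cells and monocytes, had 63 counts at 24 h, CCL3 46 and CXCL8, a neutrophil attractant, 17.

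Genes induced by interferon gamma gave 7 members of 30, and the remaining 23 had more than 3 control counts. APOL6, of the apolipoprotein L family, had 0 and 0 control counts and 598, 397 and 1140 in the biopsies, and APOL3 had 0 and 0 and then 355, 221 and 1021. IDO1, an enzyme that degrades tryptophan, had none in the controls and 63, 50 and 574. The 7 members summed to 33.2, 22.9 and 98.3 CPM, and took 2.23%, 2.23% and 4.20% of member counts. Type I interferon genes gave 8 members of 30, with 109 counts at 24 h for IFI44 and 76 for OAS3, a sensor of double-stranded RNA.

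Regulators of complement, the plasma cascade that lyses foreign cells, gave 3 of the 6 complement members of 21. CD46, a cofactor for cleavage of C3b and C4b, had 0 and 0 control counts and 418, 257 and 570 in the biopsies. CD55, which speeds the decay of C3 convertases, had 0 and 0 and then 337, 234 and 246. CD59, an inhibitor of the membrane attack complex, had 0 and 1 and then 30, 29 and 77. The labels do not give the genotype of the graft, so counts from human transgenes in the pig and counts from recipient cells cannot be told apart for these genes. The leukocyte adhesion list gave 8 members of 25, led by CD52, a small glycoprotein of leukocytes, with 578 counts at 24 h, and SELPLG, the ligand of P-selectin, with 370.

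Several gene families contributed members. The GIMAP genes, GTPases of lymphocytes and other blood cells, had 7 members of 9, from 69 to 688 counts at 24 h, led by GIMAP6. The APOL genes had 5 members of 6 and the butyrophilin genes BTN3A 3 of 3. Zinc finger genes named ZNF had 54 members of 675, each with 10 to 81 counts at 24 h. All 54 were higher at 48 h than at 24 h, beside 583 of all 667 members. The small nucleolar RNA host genes had 9 members of 28, with SNHG29 at 460 counts. Lists for haematopoietic signalling (42 genes), matrix remodelling (29) and proliferation (20) had no member, and 42, 24 and 18 of these genes had more than 3 control counts.

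Most members were present at all 3 times. At 12 h 610 members had 10 or more counts, at 48 h 618, and at both times 580. By CPM 536 members were lower at 24 h than at 12 h and 131 higher, with a median ratio of 0.705. From 24 h to 48 h 583 were higher, with a median ratio of 2.36. The 24 h biopsy was the lowest of the 3 for 494 members and the highest for 42. These counts follow the summed level of the libraries and have no replicate check.

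The 24 h dip was deepest in some genes. At least 2 times lower at 24 h than at both other times were 73 members, among them CD48, a ligand of the NK receptor CD244, with 617, 309 and 688 counts, and NLRC4, an inflammasome sensor, with 168, 81 and 196. Other genes departed from that course. The opposite, at least 2 times higher at 24 h than at both other times, held for 8 members, and none of these had more than 17 counts at 24 h. RNASE1, a secreted ribonuclease, had 630, 803 and 710 counts and had a higher CPM at 24 h than at 12 h. CXCR2 had 163, 195 and 100, while CXCR1 had 169, 146 and 102. As a share of member counts, the neutrophil list had 17.0%, 14.9% and 8.62% at 12, 24 and 48 h, and the platelet list 0.268%, 0.300% and 0.0700%. The platelet list includes SELP and ITGB3, whose 24 h counts were under 2 times their ceilings. Of the 18 neutrophil members 9 had a higher CPM at 48 h than at 24 h, against 14 of 14 monocyte and macrophage members, with S100A9 in both. Over all 667 members the number was 583.

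**Figure D5:**
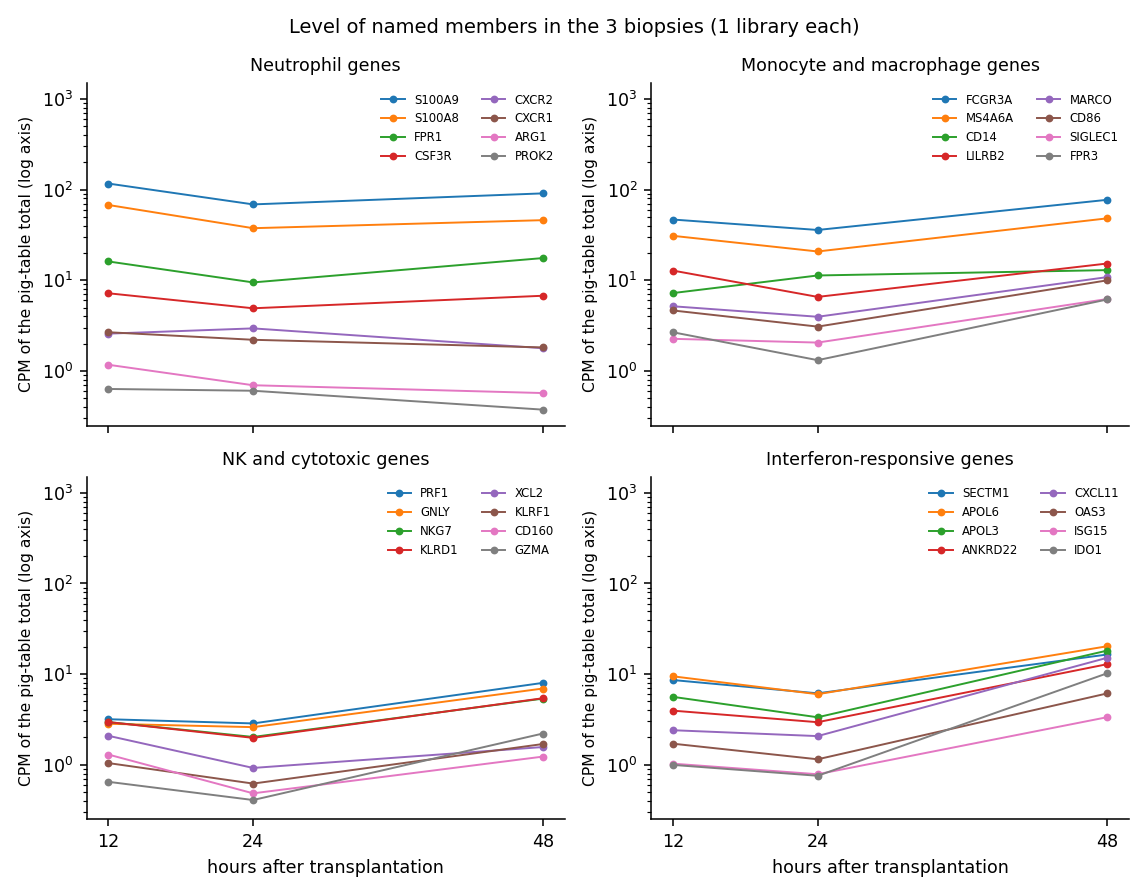
Levels in CPM (log axis) are shown at 12, 24 and 48 h for 8 members of each of 4 groups, with 1 library per time and no error bar. Most lines are lowest at 24 h, CD14 and CXCR2 are higher at 24 h than at 12 h, and IDO1 and CXCL11 are far higher at 48 h. ARG1, among the neutrophil genes, has no ceiling, as its pig gene had no control count.

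Whether the members differed between the 2 biopsies that did not enter the rule was tested at 48 h against 12 h. The fit was edgeR's quasi-likelihood test over 19420 human-table genes with Benjamini-Hochberg adjustment. The 2 controls alone supply its spread, and each single biopsy is assumed to vary as they do, although the members have next to no counts there. Of 660 members tested, 29 rose (4.39%) and 3 fell (0.455%), beside 1.25% and 0.154% of all genes tested. The median log2 difference was 0.70 over the members and 0.17 over all genes. With libraries scaled by the summed member counts, which removes the change in the total, 10 of 667 members rose and 3 fell, beside 87 and 147 of 19429 genes, and the medians turned to 0.05 and -0.48. With DESeq2 and pig-table totals, 6 of 667 members rose and none fell, beside 81 and 14 of 28001 genes. In that fit 45 members had an unadjusted p under 0.05, beside 648 of all 28001 genes.

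APOC1, an apolipoprotein also made by macrophages, showed the largest rise. It had 0 and 0 control counts and 1, 14 and 193 at 12, 24 and 48 h, a log2 difference of 7.60 ± 0.97 (SE) with an edgeR adjusted p of 1.49e-11. IDO1 rose by 3.36 ± 0.58 (adjusted p = 3.34e-06) and CXCL11 by 2.66 ± 0.55 (adjusted p = 0.00041) by the same edgeR test. The 48 h counts of IDO1 and CXCL11 were 72.6 and 27.4 times the ceiling from their pig genes at that time. APOC1 was not among the members tested in the pig table, and no ceiling is given for it here. All 3 also rose with libraries scaled by the member counts. At 24 h APOC1 lay between the other biopsies, while IDO1 and CXCL11 were at 0.758 and 0.861 times their 12 h levels.

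For some of the other members that rose, the counts at 48 h were near the ceiling from the pig gene. UHRF1, which maintains DNA methylation at replication, had 6, 27 and 113 counts at 12, 24 and 48 h, NEK2, a centrosome kinase, 5, 13 and 93, and CDCA7, a cell division gene, 5, 12 and 45. Their 48 h counts were 2.06, 1.35 and 1.16 times the ceiling. None of these 3 passed in either DESeq2 fit, and CDCA7 did not pass with member scaling. Of the 29 members that rose, 17 had a ceiling at 48 h. Of these 12 exceeded it by 2 times or more, 4 by less, and 1 was below it. The pig counts of the 3 that fell were also lower at 48 h than at 12 h. LGI2 had 94, 20 and 11 counts at 12, 24 and 48 h, and its pig gene had 173, 60 and 22. Of the 3, 2 were below the ceiling at 12 h, LGI2 at 0.906 times, and TMEM45B was at 1.17 times. None of the 3 that fell passed with DESeq2.

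The graft's own genes of the same symbol were measured in the pig table, which the rule used only for the library totals. The readout is not independent of the rule, because reads of a pig gene that rose can bring its human symbol to 10 counts. Human reads of a member could also be counted over its pig gene, which was not tested. Among the members 298 had a pig symbol, and 271 were tested in the pig table at 24 h against the controls with edgeR and TMM factors. The pig gene rose for 142 (52.4%) and fell for 35 (12.9%), beside 23.9% and 23% of 12854 pig genes tested. Without the members under 2 times their ceiling, 89 of 217 rose (41.0%) and 35 fell (16.1%). Leaving these out concerns only graft reads in the human table and not human reads in the pig table. The median log2 difference was 0.85 over the 271 and 0.00 over all pig genes. Without TMM factors 132 rose and 8 fell, and over all pig genes 2389 rose and 517 fell, against 3067 and 2959 with them. The 24 h biopsy is 1 library, and this fit too takes its spread from the 2 controls.

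Of 16 NK and cytotoxic members 7 could be tested in the pig table, and 4 fell (GNLY, PRF1, CD244 and CST7), 1 rose (NKG7) and 2 did not pass (GZMA and KLRB1). Of the 4 T cell members, 3 fell (CD4, CD2 and CD247) and TIGIT did not pass (-0.21 ± 0.55). The pig GNLY gene had 518 and 591 counts in the controls and 59 at 24 h, and fell by 3.62 ± 0.31 on the log2 scale (edgeR adjusted p = 5.36e-30). Pig CD4 had 71 and 50 control counts and 14 at 24 h, and fell by 2.47 ± 0.49 (edgeR adjusted p = 3.13e-06). Pig PRF1 fell by 1.91 ± 0.57, from 35 and 29 counts to 11. The human counts of GNLY, CD4 and PRF1 at 24 h were 1078, 686 and 367 times their ceilings. Pig CD2 and CD247 fell too, by 1.17 ± 0.27 and 1.23 ± 0.27. All of these falls are from the fit with TMM factors. Members' pig genes called lower numbered 35 there, 8 without TMM factors and 11 with DESeq2, beside 2959, 517 and 1901 of all pig genes. Which of the named falls kept their call in those settings is not given here. Pig NKG7 went the other way, from 144 and 179 counts to 586, a log2 difference of 1.47 ± 0.22 (edgeR adjusted p = 5.21e-10).

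Of the monocyte and macrophage members 5 were tested in the pig table, of which 4 rose, and of the neutrophil members 7 of 9 rose. Pig CD14 had 215 and 213 control counts and 1719 at 24 h, a log2 difference of 2.62 ± 0.18 (edgeR adjusted p = 8.77e-48), and its human count was 62.1 times the ceiling. Pig IFNGR1 rose by 0.65 ± 0.15 and pig SIGLEC1 by 1.57 ± 0.30. For S100A8, SERPINA1 and CPVL, a carboxypeptidase of macrophages, the pig counts were few. They were 2 and 0, 2 and 0, and 4 and 2 in the controls and 22, 42 and 104 at 24 h, beside human counts of 2486, 1146 and 544. Counts were also few for pig S100A12, MMP8 and MARCO, which were called higher. They were 1 and 2, 2 and 1, and 2 and 0 in the controls. At 24 h they were 37, 13 and 9, beside human counts of 157, 23 and 262. Whether human reads were counted over any of these pig genes was not tested. Pig MNDA (-0.55 ± 0.29), CD48 (-0.26 ± 0.26) and CTSD (-0.10 ± 0.17), a lysosomal protease, did not pass the test.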

How the data were processed

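The authors deposited raw counts per gene symbol for the same 5 libraries in 2 tables, 1 from a pig genome (15235 symbols) and 1 from the human genome (59385). All entries were integers, and totals differed between libraries. The submitters' processing notes name hg38, and per the labels' protocols total RNA from kidney core biopsies was depleted of ribosomal RNA. The aligner, counting tool, strand setting and annotation are not given in the sources used here, nor is any competition between genomes. The cell type label reads as dissociated cells, and the protocol was followed. Sex-linked marker genes and genes that mark a person were left out before any step (898 human-table and 6 pig-table symbols).

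Human-table counts were scaled by the pig-table total of the library. edgeR 4.0.16 in R 4.3.3 fitted all 5 libraries with a coefficient per time, filterByExpr (minimum count 10, minimum total 15), robust quasi-likelihood tests and Benjamini-Hochberg adjustment at 0.05, with 1 residual degree of freedom. The human table used pig totals and the pig table TMM. An SE is the absolute log2 difference divided by the square root of F. DESeq2 1.42.0 was an alternative. The controls differed beyond sampling noise (chi-square per degree of freedom 13.4 over 17620 human-table genes). Folds against controls at 0 use a floor of 3 counts over both, and other ratios carry exact 95% intervals. These intervals reflect counting error alone, as the reads carried no molecular identifiers. The scripts were tested on simulated data.

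The members, the lists and the tests were chosen with earlier results of these data known. Named genes were the 3 markers, the 20 members with the most counts, up to 6 per list, up to 8 per direction among those past the test at 48 h against 12 h, up to 8 per 24 h peak, trough or rise of the pig symbol, and list genes outside the rule where a count turns on them. CTSD, SNHG29, KRT18, CXCL9, CXCL10 and the genes compared with their ceilings were named after their values were seen, as were UMOD and LRP2.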

Additional observations from a re-analysis of the deposited data

How the results depend on the processing

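The number of members depended on the limits of the rule. It was 329 with no control count allowed, 1317 with up to 10, 1284 with a minimum of 5 counts at 24 h, 395 with 20 and 217 with 50, and 992 to 1144 with 1 control left out. The summed level at 24 h was 3547 CPM on the human-table total, 1202 CPM on the pig-table total without mitochondrial genes, 300.0 with no control count allowed, 1017 without the members at or below their ceiling (chosen after seeing the data), and 1346 to 1414 with 1 control left out. Under the pig-table, non-mitochondrial and human-table scales the 24 h sum was the lowest of the biopsies. The 48 h over 24 h ratio was 1.97 on the human-table scale and 2.51 with no control count allowed.

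At 24 h against the controls, DESeq2 with its own size factors called 388 members higher, and over all genes DESeq2 called 2939 with pig totals and 1500 with its own factors. At 48 h against 12 h, members that rose were 73 with TMM on the human table, 83 with the TMM factors of the pig table, 6 and 10 with DESeq2 (pig totals and its own factors) and 10 with member scaling, and genes of the whole table that rose were 765, 874, 81, 143 and 87 in that order. Members that fell were 9 and 8 with the TMM settings and 0 in both DESeq2 fits, and genes of the whole table that fell were 287, 242, 14, 57 and 147. In the DESeq2 fits 45 and 44 members had an unadjusted p under 0.05, beside 648 and 964 of 28001 genes. The cause of these shifts was not tested. In the pig table DESeq2 called 93 members' genes higher and 11 lower, with 2001 and 1901 over all pig genes, and without TMM 8 members' genes and 517 of all pig genes were lower. Without the members under 2 times their ceiling (chosen after seeing the data), the pig gene rose for 89. With member scaling the median over all genes at 48 h against 12 h turned from 0.17 to -0.48, and more genes fell than rose. Of the named members past the test at 48 h against 12 h, UHRF1, NEK2, TMEM176B, PTTG1, RECQL4, CDCA7, LGI2 and TMEM45B did not pass in either DESeq2 fit, and RECQL4 and CDCA7 did not with member scaling. None of these changed sign. APOC1 and IDO1 passed in each setting run.

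Leaving out a control leaves no residual degree of freedom, so those fits gave no calls. No paired analysis was possible because only the controls carry replicate numbers. With 1 biopsy per time, the variation between cores was not measured. A count of 0 at 24 h does not exclude a low level, and a floor of 3 counts corresponds to 0.0453 CPM there.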
